A study of Rattus norvegicus with 18 samples.

Results

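The genes described here encode the conjugating enzymes of the liver: UDP-glucuronosyltransferases (UGT), cytosolic sulfotransferases (SULT), soluble glutathione transferases (GST) and microsomal glutathione transferases (MGST). They were chosen by symbol from the probe sets that name a single gene, as symbols beginning with Ugt1, Ugt2, Ugt3, Sult or Mgst, or with Gst followed by a class letter and a digit. This gave 48 probe sets for 45 genes, out of 14217 genes measured. The gene set held 8 UGT, 14 SULT, 20 GST and 3 MGST genes, and each gene was read from its probe set with the highest mean signal.

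Conjugating enzymes attach a polar group to bilirubin, steroid and thyroid hormones, bile acids, drugs and plant compounds, which makes them easier to export into bile or blood. UGTs sit in the endoplasmic reticulum and use UDP-glucuronic acid, SULTs sit in the cytosol and use an activated sulfate, and GSTs join electrophiles to the tripeptide glutathione. In the hepatocyte many of these genes are known to respond to nuclear receptors and, for several GSTs, to the oxidative stress factor NRF2.

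Liver RNA came from adult male Sprague Dawley rats kept for 8 weeks on chow (chow), a high fat diet (HFD), or that diet plus 150 mg per kg daily of an extract of pomegranate skin (HFD+PE). All rats were fasted overnight before the liver was taken, so every group is a fasted liver, and the makeup of the high fat diet is unstated in the labels. There were 6 Affymetrix arrays per group, and values are log2 signals after RMA, a method that corrects background, equalizes the arrays and summarizes the probes of each set. In each group 1 pair of arrays lacked the large differences seen between all other arrays and was averaged as 1 animal (chow 3-4, HFD 1-2 and HFD+PE 3-4), which left 5 animals per group.

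Within these pairs 0 probe sets differed by more than 2 log2 units, whereas each of the 150 remaining pairs had 18 to 109. By the SD of their differences the pairs were not equally close, at 0.1168 for HFD 1-2, 0.2153 for chow 3-4 and 0.2598 for HFD+PE 3-4. The lowest SD of a remaining pair was 0.2596. That a pair came from 1 animal is an inference from the values, since the labels call all arrays biological replicates. Hepatocyte markers averaged 13.19 to 13.59 in every animal, and kidney markers 4.24 to 4.52. Macrophage markers, of which 8 of 9 were measured, were all lower on HFD than on chow and lower still on HFD+PE. Their mean signal was 8.07 to 9.10 in chow, 7.51 to 8.36 in HFD and 7.05 to 8.04 in HFD+PE animals. At an unadjusted p under 0.05 in limma, 6 of the 8 differed on HFD against chow and all 8 on HFD+PE against chow. This count and those of the marker lists below stand beside 7.65% and 11.1% of all genes in these 2 comparisons. Pericentral hepatocyte markers, which include Cyp2e1 and Glul, averaged 8.79 to 9.21 in chow, 8.99 to 9.35 in HFD and 9.16 to 9.61 in HFD+PE animals. Of the 8 measured, 7 were higher on HFD than on chow, 3 of them at that threshold. All 8 were higher on HFD+PE than on chow, 4 of them at that threshold. Periportal hepatocyte markers, which include Gls2 and Ass1, averaged 11.46 to 11.91, 11.58 to 11.77 and 11.20 to 11.77, and 6 of 8 were lower on HFD+PE than on chow, 2 of them at an unadjusted p under 0.05 in limma. Stellate cell markers, collagen genes among them, averaged 6.54 to 6.76, 6.21 to 6.56 and 6.20 to 6.49, and 7 of 8 were lower on HFD+PE than on chow, 3 of them at that threshold. In bulk tissue, fewer cells of a type and less RNA per cell cannot be told apart, and the part of these markers in the results below was not tested. Averaged over the hybridization controls bioC, bioD and cre, RNA added to each sample, signals were higher on 5 arrays than on the other 13. These were chow 1, 2 and 3, and HFD+PE 1 and 3, and no HFD array was in the higher set. The control bioB went the other way on chow 2 and 3 and HFD+PE 1 and 3, at 6.28, 6.08, 7.0 and 5.88. It was 9.67 on chow 1 and 7.95 to 8.55 on the other 13 arrays. The control set below always means the split by bioC, bioD and cre. The pairs chow 3-4 and HFD+PE 3-4 have an array in each set, so the higher and lower sets are not independent.

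The member genes lie mostly in runs of paralogs in the RefSeq rat assembly GRCr8. All 7 Ugt2b genes lie on chromosome 14, together with Ugt2a1, Sult1b1, Sult1d1 and Sult1e1, 8 members lie on chromosome 2, of which 7 are Gstm genes, and 6 lie on chromosome 9. Of the 45 genes, 39 had a RefSeq promoter, taken as 250 bases before to 50 bases after the transcription start. The 250 bases before the start are shown for the 5 genes the results below turn on, so that paralogs can be set beside each other. They are Ugt2b1 (chr14:21378632-21378881, plus strand), Ugt2b (chr14:20985199-20985448, plus strand), Sult1c2 (chr9:7436731-7436980, plus strand), Sult1c2a (chr9:7103203-7103452, minus strand) and Gstm7 (chr2:198260320-198260569, minus strand), each written 5′ to 3′ in gene direction. Capitals mark the core TTGCNNAA bound by C/EBP factors of hepatocytes in Ugt2b (reverse strand) and Sult1c2a, and the antioxidant response element core TGACNNNGC in Gstm7.
Ugt2b1: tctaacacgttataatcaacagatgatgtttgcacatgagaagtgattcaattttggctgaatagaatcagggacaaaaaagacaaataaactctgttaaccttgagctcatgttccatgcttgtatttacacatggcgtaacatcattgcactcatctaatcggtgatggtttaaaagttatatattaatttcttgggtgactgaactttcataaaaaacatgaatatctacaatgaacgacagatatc
Ugt2b: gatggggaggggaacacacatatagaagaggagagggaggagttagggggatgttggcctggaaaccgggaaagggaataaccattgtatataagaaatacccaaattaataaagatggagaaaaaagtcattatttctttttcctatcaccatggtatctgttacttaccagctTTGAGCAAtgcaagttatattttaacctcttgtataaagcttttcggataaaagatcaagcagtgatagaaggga
Sult1c2: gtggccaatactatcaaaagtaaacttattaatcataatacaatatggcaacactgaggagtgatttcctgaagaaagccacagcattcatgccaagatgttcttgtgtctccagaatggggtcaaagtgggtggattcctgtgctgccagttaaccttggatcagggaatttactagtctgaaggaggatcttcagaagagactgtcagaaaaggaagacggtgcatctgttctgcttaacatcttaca
Sult1c2a: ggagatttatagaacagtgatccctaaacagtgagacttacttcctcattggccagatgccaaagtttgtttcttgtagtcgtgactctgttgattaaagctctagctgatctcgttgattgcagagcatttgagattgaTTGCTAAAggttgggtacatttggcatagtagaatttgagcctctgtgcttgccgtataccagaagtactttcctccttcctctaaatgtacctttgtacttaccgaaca
Gstm7: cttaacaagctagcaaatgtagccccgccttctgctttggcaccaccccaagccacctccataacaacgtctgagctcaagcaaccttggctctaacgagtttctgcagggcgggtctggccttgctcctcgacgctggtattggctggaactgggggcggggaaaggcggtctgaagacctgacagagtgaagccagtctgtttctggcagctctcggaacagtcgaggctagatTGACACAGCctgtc

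Over the full 300 bases and both strands, the C/EBP core was present in 12 of 39 member promoters (30.8%), against 10.6% of all 33469 promoters. The match in Ugt2b1 began 14 bases after the start and is outside the stretch shown. The antioxidant core was in 6 of 39 (15.4%, against 12.1%), in Gsta1, Gsta3, Gstm5, Gstm7, Gstp1 and Gstz1. The HNF1 motif GTTAAT was in 5 (12.8%, against 7.45%), the PPAR motif AGGTCA in 3 (7.69%, against 16.2%) and the aryl hydrocarbon receptor core GCGTG in 9 (23.1%, against 29.7%). The Sult1c2 promoter held none of the 5 letter patterns. A match describes letters only, and base composition was not matched. Paralogs were counted as separate promoters though some share sequence. Those with the C/EBP core include Sult2a1, Sult2a2 and Sult2a6, and Ugt2b, Ugt2b1, Ugt2b15 and Ugt2b35. Among the paralog pairs compared over 300 bases, identity ran from 44.5% (Gstm2 and Gstm4) to 97.3% (Sult2a1 and Sult2a6). It was 51.7% between Ugt2b and Ugt2b1 and 51.9% between Sult1c2 and Sult1c2a, but 66.7% between Ugt2b and Ugt2b15, 70.9% between Ugt2b35 and Ugt2b7 and 79.9% between Sult2a1 and Sult2a2.

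Across the families, differences between groups were small. On HFD against chow, the median log2 difference was 0.09 for the 8 UGT genes, 0.07 for the 14 SULT genes, -0.01 for the 20 GST genes and 0.06 for the 3 MGST genes, against 0 over all 14217 genes. The UGT median changed sign, to -0.02, when the 18 arrays were counted separately and to -0.06 with the control set as a covariate. Of the SULT genes, 13 of 14 were higher on HFD, beside 9 of 20 GST genes and 7088 of all 14217 genes. Of these 13 differences 7 were between 0.02 and 0.09, and Sult1e1 alone had an unadjusted p under 0.05. The remaining gene, the cholesterol sulfotransferase Sult2b1, stood at -0.06 (SE 0.17) by its brighter probe set but at 0.18 (SE 0.10) by a second one. On HFD+PE against chow those probe sets gave 0.01 and 0.16. On HFD+PE against HFD the family medians were 0.03 for UGT, -0.02 for SULT, 0.02 for GST and 0.02 for MGST genes. On HFD+PE against chow they were 0.11, 0.09, 0.01 and 0.10 in the same order. The median size of a member's difference was 0.09, 0.07 and 0.10 in the 3 comparisons, beside 0.08, 0.07 and 0.09 for all genes. The 3 comparisons share animals, so their values are given side by side only.

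No member passed an adjusted p of 0.05 in any comparison (limma, Benjamini-Hochberg over all genes), and neither did any other gene. At an unadjusted p under 0.05 in limma, 4 of 45 members (8.89%) differed between HFD and chow, beside 7.65% of all genes. The count was 1 of 45 (2.22%) for HFD+PE against HFD, beside 2.7%, and 6 of 45 (13.3%) for HFD+PE against chow, beside 11.1%. For any difference between the 3 groups it was 4 of 45, beside 8.14%. The members' shares were thus near those of all genes. In no comparison did the 5 animals of one group lie wholly above or below the other for any member, beside 0.521%, 0.134% and 1.41% of all genes. By direction, 3 members were higher (6.67%, beside 4.08% of all genes) and 1 lower (2.22%, beside 3.57%) on HFD than on chow. On HFD+PE against HFD, 0 members were higher, beside 1.64%, and 1 was lower, beside 1.06%. On HFD+PE against chow, 4 were higher (8.89%, beside 6.0%) and 2 lower (4.44%, beside 5.14%). Over all genes that last split was 853 higher and 731 lower, and 640 and 859 after each array was centred on its median. The split on HFD against chow was 580 higher and 508 lower, and 481 and 571 after centring.

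**Figure D1:**
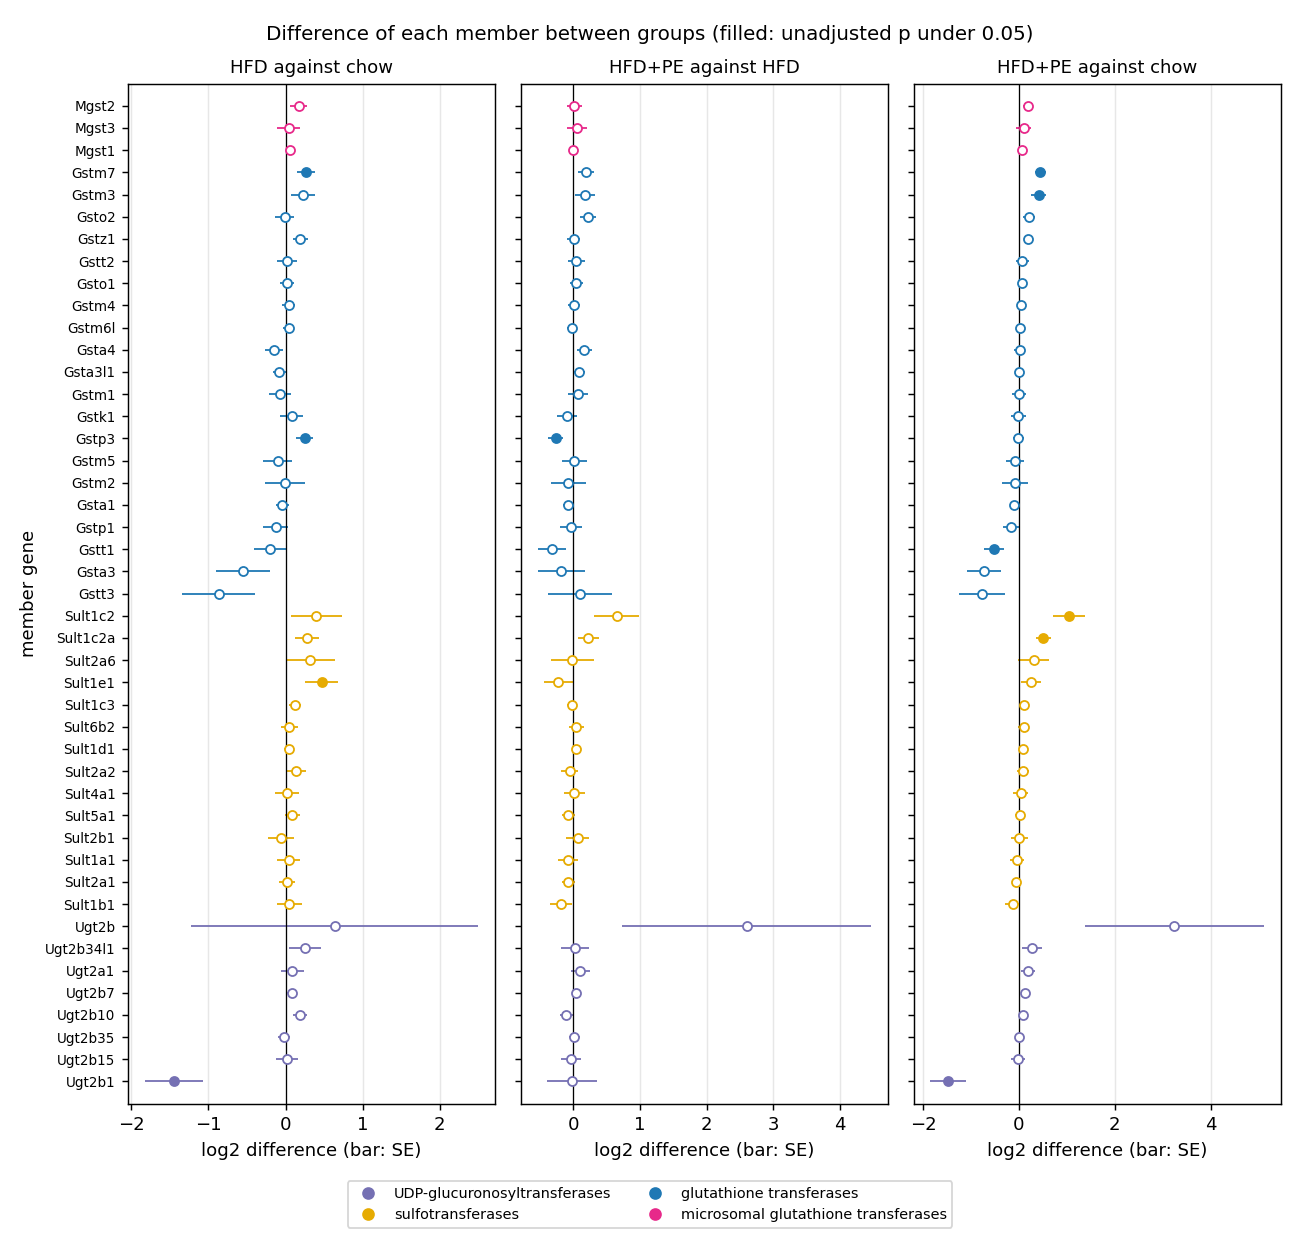
Log2 difference (x axis) of each of the 45 member genes (y axis, coloured by family) in the 3 comparisons, with bars of 1 standard error from limma and filled points for an unadjusted p under 0.05. Most points lie near 0, and Ugt2b1 lies at -1.45 and -1.47 in the comparisons with chow, while Ugt2b has the widest bars.

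The member with the most negative difference from chow on both high fat diets was Ugt2b1, a glucuronosyltransferase of xenobiotics such as bisphenol A. Its signal in chow 1, 2, 3-4, 5 and 6 was 9.8, 8.9, 10.4, 10.7 and 10.7. In HFD 1-2, 3, 4, 5 and 6 it was 9.95, 8.4, 8.5, 8.6 and 7.8, and in HFD+PE 1, 2, 3-4, 5 and 6 it was 8.5, 9.0, 9.05, 8.7 and 7.9. Chow 2 was the lowest of the chow animals and HFD 1-2 the highest of the HFD animals, and through them the groups overlapped; the remaining 4 chow animals lay above every HFD+PE animal. The group means were 10.10 ± 0.76 in chow, 8.65 ± 0.79 in HFD and 8.63 ± 0.47 in HFD+PE (SD, n = 5 each). The difference was -1.45 (SE 0.38, 2.73-fold lower) for HFD against chow and -1.47 (SE 0.38, 2.77-fold lower) for HFD+PE against chow, with limma adjusted p of 0.453 and 0.146. All 5 animals of each high fat group lay below the chow mean. HFD+PE differed from HFD by -0.02 (SE 0.38), so no difference was detectable between the diets with and without extract.

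By size, Ugt2b1 ranked 2 from the lowest of 14217 differences on HFD against chow and 8 on HFD+PE against chow. Its unadjusted p stayed under 0.05 in both comparisons with chow in all 28 fits, the main one and 27 alternatives, where HFD against chow ran from -1.95 to -1.24. Within the arrays of the lower control set the difference was -1.95 for both comparisons. In the higher set, which held 3 chow and 2 HFD+PE arrays, it was -0.90 for HFD+PE against chow, with signals of 8.9 to 10.4 and 8.5 to 9.1. Without HFD 1-2 the HFD difference was -1.78, and its adjusted p was 0.0767.

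Ugt2b, which encodes the UGT that conjugates androsterone, was either high or very low in an animal. In chow 1 and 2 its signal was 6.0 and 3.6, in HFD 1-2 and 6 it was 5.9 and 7.1, and in the other 11 animals it was 12.7 to 13.5. No animal lay between 7.1 and 12.7. The low signal was thus seen in 2 of 5 chow, 2 of 5 HFD and 0 of 5 HFD+PE animals. A second probe set of the gene separated the same animals, at 2.8 to 3.6 in those 4 and 9.65 to 10.9 in the others.

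Because a few animals set the mean, the Ugt2b group values were 9.88 ± 4.72 in chow, 10.52 ± 3.69 in HFD and 13.12 ± 0.27 in HFD+PE (SD, n = 5 each). HFD+PE was higher than chow by 3.24 (SE 1.86, limma adjusted p = 0.581) and than HFD by 2.60 (SE 1.86, limma adjusted p = 0.993), the largest positive differences of any gene in those comparisons. Neither exceeded the spread between animals. HFD against chow was 0.64 (SE 1.86) with 15 animals and turned to -0.68 when the 18 arrays were counted separately. HFD+PE against chow was -0.18 in the lower control set and 5.42 in the higher set, where 2 of 3 chow arrays carried the low signal. It was 1.67 without chow 2 and 4.15 without chow 6, and HFD+PE against HFD was 1.45 without HFD 1-2 and 1.75 without HFD 6.

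**Figure D2:**
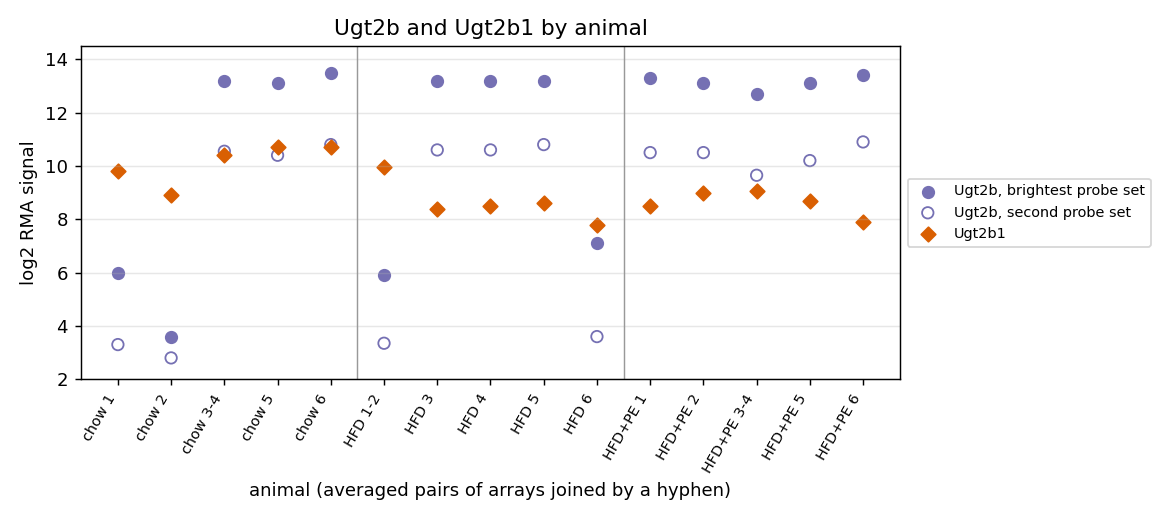
Log2 signal (y axis) of both Ugt2b probe sets and of Ugt2b1 in each of the 15 animals (x axis, grouped by diet). Both Ugt2b probe sets drop in chow 1, chow 2, HFD 1-2 and HFD 6, whereas Ugt2b1 is highest in chow 5 and 6 (10.7) and lowest in HFD 6 (7.8).

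Of the 4 animals with low Ugt2b, chow 1 and 2 had the lowest Ugt2b1 of the chow animals, 9.8 and 8.9. HFD 6 had the lowest Ugt2b1 of all, 7.8, whereas HFD 1-2 had the highest of the HFD animals, 9.95. Ugt2b15, the gene next to Ugt2b, lay at 11.2 to 12.0, and the same 4 animals were the lowest 2 of the chow and of the HFD group. It was at 11.4 and 11.5 in chow 1 and 2 while the remaining chow animals lay at 11.65 to 12.0, and at 11.45 and 11.5 in HFD 1-2 and 6 against 11.6 to 12.0. HFD+PE 3-4, with high Ugt2b, had the lowest Ugt2b15 of all, 11.2. Ugt2b35 lay at 12.5 to 12.9. The other UGT members, Ugt2b10, Ugt2b7, Ugt2b34l1 and Ugt2a1, differed by -0.10 to 0.28 in the 3 comparisons. The dimmest was Ugt2b7 at 4.1 to 4.5. No Ugt1 gene, the family that conjugates bilirubin, could be read alone, since 2 probe sets each name 8 Ugt1a genes and were left out.

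Among the sulfotransferases, Sult1c2 and Sult1c2a, of a subfamily that acts on N-hydroxy arylamines, were highest on HFD+PE. Sult1c2 was at 7.5, 6.6, 7.75, 7.9 and 8.0 in chow 1, 2, 3-4, 5 and 6, and at 8.05, 9.1, 7.5, 7.6 and 7.5 in HFD 1-2, 3, 4, 5 and 6. In HFD+PE 1, 2, 3-4, 5 and 6 it was 8.7, 8.6, 7.6, 9.1 and 9.0. All HFD+PE animals but 3-4 lay at 8.6 or above and exceeded every chow animal. Of the HFD animals, HFD 3 alone reached 8.6, while HFD 1-2, at 8.05, also exceeded the highest chow animal, at 8.0. HFD+PE was higher than chow by 1.05 (SE 0.34, 2.07-fold, limma adjusted p = 0.237), and HFD by 0.40 (SE 0.34), which was 0.11 without HFD 3, 0.16 without chow 2 and 0.04 with the control set as a covariate. HFD+PE against HFD was 0.65 (SE 0.34, limma adjusted p = 0.993), not beyond the spread between animals. Within the lower control set the HFD+PE difference from chow was 0.70, which no longer had an unadjusted p under 0.05, and within the higher set it was 0.83.

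Sult1c2a was at 10.4, 9.8, 10.6, 10.5 and 10 in chow, 10.7, 10.7, 10.4, 10.2 and 10.7 in HFD, and 10.5, 10.8, 10.55, 11.1 and 10.9 in HFD+PE animals, in the same order. The highest 3 animals of all were HFD+PE 2, 5 and 6, and the lowest 2 were chow 2 and 6. HFD+PE was higher than chow by 0.51 (SE 0.16, 1.42-fold, limma adjusted p = 0.237), with all 5 animals above the chow mean. Its unadjusted p stayed under 0.05 in all 28 fits, from 0.40 to 0.60. Within the higher control set, which was not tested, the difference was 0.28, with 10.5 and 10.6 on HFD+PE and 9.8 to 10.6 on chow. Sult1c3, which lies in the same region of chromosome 9, was at 12.5 to 12.9 throughout and differed by 0.10 (SE 0.07). A further probe set that names Sult1c2 together with another gene was left out, and cross-hybridization between these paralogs was not tested.

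Sult1e1, the oestrogen sulfotransferase, was at 12.6, 12.5, 12.6, 12.5 and 11.6 in chow and at 13.05, 12.6, 12.4, 12.7 and 13.4 in HFD animals. In HFD+PE animals it was 12.4, 12.5, 12.35, 12.7 and 13.1. Chow 6 was the lowest animal and HFD 6 the highest, and chow and HFD overlapped between 12.4 and 12.6. HFD was higher than chow by 0.47 (SE 0.21, limma adjusted p = 0.625), which was 0.28 without chow 6 and 0.33 without HFD 6. HFD+PE was 0.25 above chow, but 0.06 without chow 6. It stood at -0.22 against HFD, and at -0.08 without HFD 6.

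The remaining 11 SULT genes, which include Sult1a1 and Sult1b1 for phenols and the Sult2a genes for hydroxysteroids and bile acids, differed by -0.18 to 0.32. Sult2a6 had the largest of these, 0.32 on HFD and 0.31 on HFD+PE against chow, with 7.6 to 9.6 over all animals and adjusted p of 0.863 and 0.824 in limma. Sult1d1 was at 2.5 to 2.75 in every animal, close to the lowest value of the data set, 2.2.

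**Figure D3:**
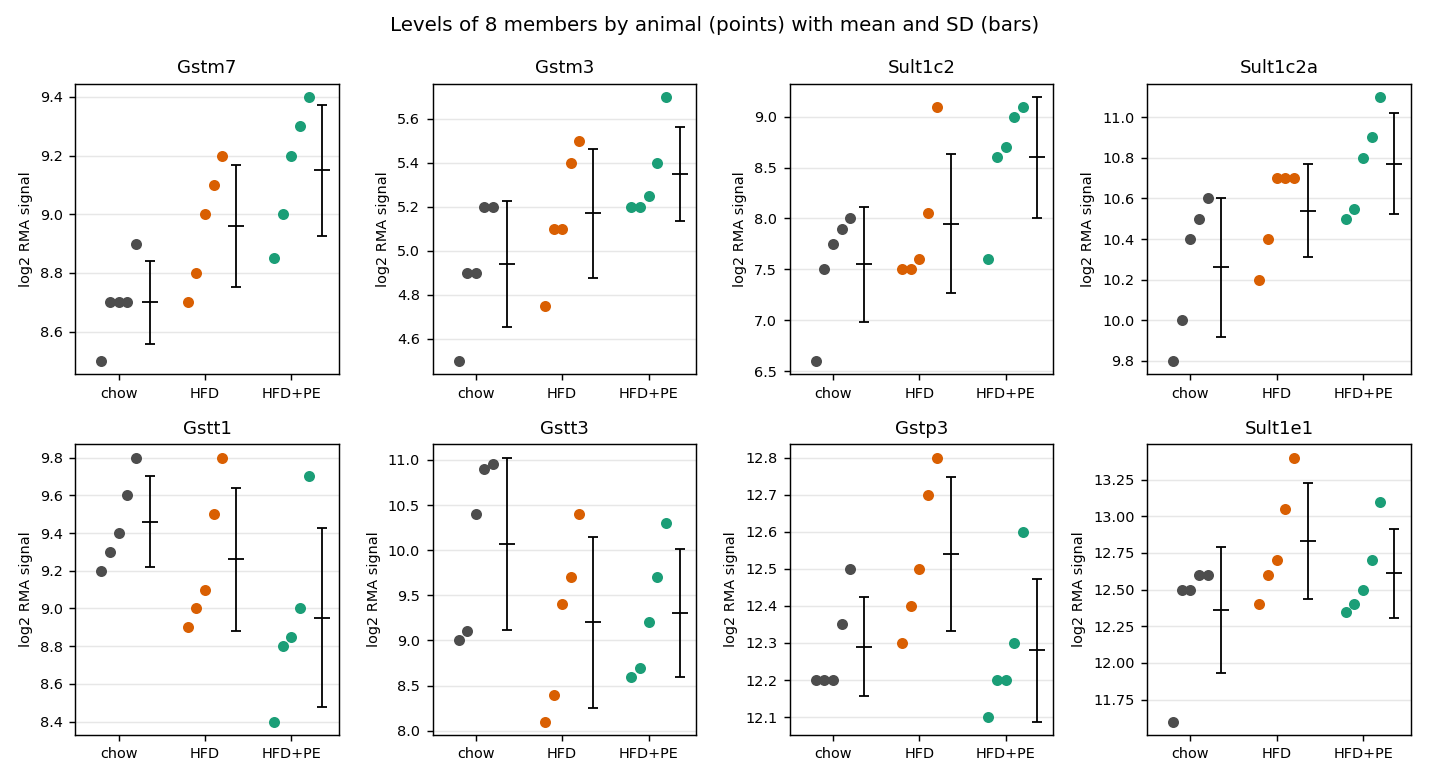
Log2 signal (y axis) of 8 members in the 5 animals of each group (points), with the mean and SD (bars); the y axes differ between genes and do not start at 0. The 3 groups overlap in each gene, and Gstm7, Gstm3, Sult1c2 and Sult1c2a have their highest mean in HFD+PE.

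Of the glutathione transferases, the mu class genes Gstm7 and Gstm3 were higher on HFD+PE than on chow. Gstm7 was at 8.7, 8.5, 8.7, 8.9 and 8.7 in chow, 8.8, 9.0, 9.1, 9.2 and 8.7 in HFD, and 9.2, 9.0, 8.85, 9.3 and 9.4 in HFD+PE animals. Only chow 5, at 8.9, reached into the HFD+PE range, and HFD animals lay across both. The mean was 8.70 ± 0.14 in chow, 8.96 ± 0.21 in HFD and 9.15 ± 0.22 in HFD+PE (SD, n = 5 each). HFD+PE was higher than chow by 0.45 (SE 0.12, 1.37-fold, limma adjusted p = 0.153), with 0.36 in the lower and 0.42 in the higher control set, and its unadjusted p stayed under 0.05 in all 28 fits. HFD was higher than chow by 0.26 (SE 0.12, limma adjusted p = 0.630), and this was 0.18 with the control set as a covariate, without an unadjusted p under 0.05. That p was also at or above 0.05 without chow 1, 2, 3-4 or 6 or HFD 3, 4 or 5, each left out alone. HFD+PE against HFD was 0.19 (SE 0.12). The antioxidant core in its printed promoter lies just before the start, and Gstm5 was the one other mu class gene with that core.

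Gstm3 gave a weaker signal, at 4.9, 4.5, 5.2, 5.2 and 4.9 in chow, 4.75, 5.1, 5.4, 5.1 and 5.5 in HFD and 5.7, 5.4, 5.25, 5.2 and 5.2 in HFD+PE animals. The median signal of 11 kidney and intestine markers, 4.66, lay within the range of these values, so Gstm3 was read near background. Every HFD+PE animal was at or above the highest chow value of 5.2. HFD+PE was higher than chow by 0.41 (SE 0.15, limma adjusted p = 0.311), but by 0.13 in the lower control set and 0.70 in the higher one. Without chow 2 it was 0.30, and without chow 2 or HFD+PE 1 its unadjusted p was no longer under 0.05. Gstm1, Gstm2, Gstm4, Gstm5 and Gstm6l differed by -0.10 to 0.07 in the 3 comparisons.

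The theta class genes Gstt1 and Gstt3 are neighbours on chromosome 20 and act on small halogenated compounds. Gstt1 was at 9.2, 9.4, 9.8, 9.3 and 9.6 in chow, 9.1, 9.8, 9.0, 8.9 and 9.5 in HFD, and 9.0, 9.7, 8.85, 8.8 and 8.4 in HFD+PE animals. HFD+PE 2 lay in the chow range, while the other 4 HFD+PE animals lay below every chow animal. HFD+PE was lower than chow by -0.51 (SE 0.21, limma adjusted p = 0.366) and HFD by -0.20 (SE 0.21). The HFD+PE difference was -0.62 in the lower and -0.57 in the higher control set, and -0.37 without HFD+PE 6. Its unadjusted p was no longer under 0.05 when chow 3-4 or 6 or HFD+PE 3-4, 5 or 6 was left out alone.

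Gstt3 had the largest spread after Ugt2b, with 9.0, 10.4, 10.95, 9.1 and 10.9 in chow, 9.7, 10.4, 8.4, 8.1 and 9.4 in HFD and 8.7, 10.3, 8.6, 9.2 and 9.7 in HFD+PE animals. Both low and high animals occurred in each group. It was lower than chow by -0.87 (SE 0.48, limma adjusted p = 0.690) on HFD and -0.77 (SE 0.48, limma adjusted p = 0.615) on HFD+PE, neither beyond the spread between animals. The HFD+PE difference was -1.5 in the higher control set. Gstt2 of the same class differed by 0.02 to 0.07.

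Gstp3, a pi class gene next to Gstp1, was the one member with an unadjusted p under 0.05 in limma on HFD+PE against HFD, where it was lower. It was at 12.2, 12.2, 12.35, 12.5 and 12.2 in chow, 12.4, 12.8, 12.7, 12.5 and 12.3 in HFD, and 12.2, 12.6, 12.1, 12.2 and 12.3 in HFD+PE animals. HFD 3 and 4 were the highest 2 animals, and HFD and HFD+PE overlapped between 12.3 and 12.6. HFD was higher than chow by 0.25 (SE 0.11, limma adjusted p = 0.625), HFD+PE was lower than HFD by -0.26 (SE 0.11, limma adjusted p = 0.993), and HFD+PE stood at -0.01 against chow. With the control set as a covariate the first 2 values were 0.16 and -0.21, and neither had an unadjusted p under 0.05. The first also lost it without chow 1, 2 or 6 or HFD 3 or 4, and the second without HFD 3 or 4 or HFD+PE 1, 3-4 or 5, each left out alone. Gstp1, known as a marker of altered liver foci in the rat, was at 7.4 to 8.3 and differed by -0.16 to -0.03.

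Among the alpha class genes, Gsta3 was dim, at 3.3 to 5.6, and was lower than chow by -0.55 (SE 0.35) on HFD and -0.73 (SE 0.35, limma adjusted p = 0.457) on HFD+PE. Chow 5 was the highest animal at 5.6, and without it the differences were -0.27 and -0.45. The HFD+PE difference was -1.10 in the lower control set and 0.02 in the higher one. Gsta1, at 12.2 to 12.7, differed by -0.11 to -0.04, and Gsta4, which conjugates the lipid peroxidation product hydroxynonenal, by -0.15 to 0.17. A probe set that names both Gsta2 and Gsta5, with a mean of 12.71, was left out, so these genes are not described. Gstz1, a step of tyrosine breakdown, was higher than chow by 0.19 (SE 0.10) on HFD and 0.20 (SE 0.10, limma adjusted p = 0.456) on HFD+PE. Gsto2, of the omega class with dehydroascorbate reductase activity, was 0.22 (SE 0.12) higher on HFD+PE than on HFD, with 0.28 when the 18 arrays were counted separately. Gsta3l1, Gsto1 and the kappa class gene Gstk1 differed by -0.09 to 0.09.

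The 3 membrane-bound MGST genes hardly differed. Mgst1, which conjugates and reduces lipid peroxides, was at 14.1 to 14.2 in every animal. Mgst2, related to leukotriene C synthase, was higher than chow by 0.17 (SE 0.11) on HFD and 0.19 (SE 0.11, limma adjusted p = 0.592) on HFD+PE. Mgst3 was at 9.4 to 10.3 and differed by 0.04 to 0.10.

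**Figure D4:**
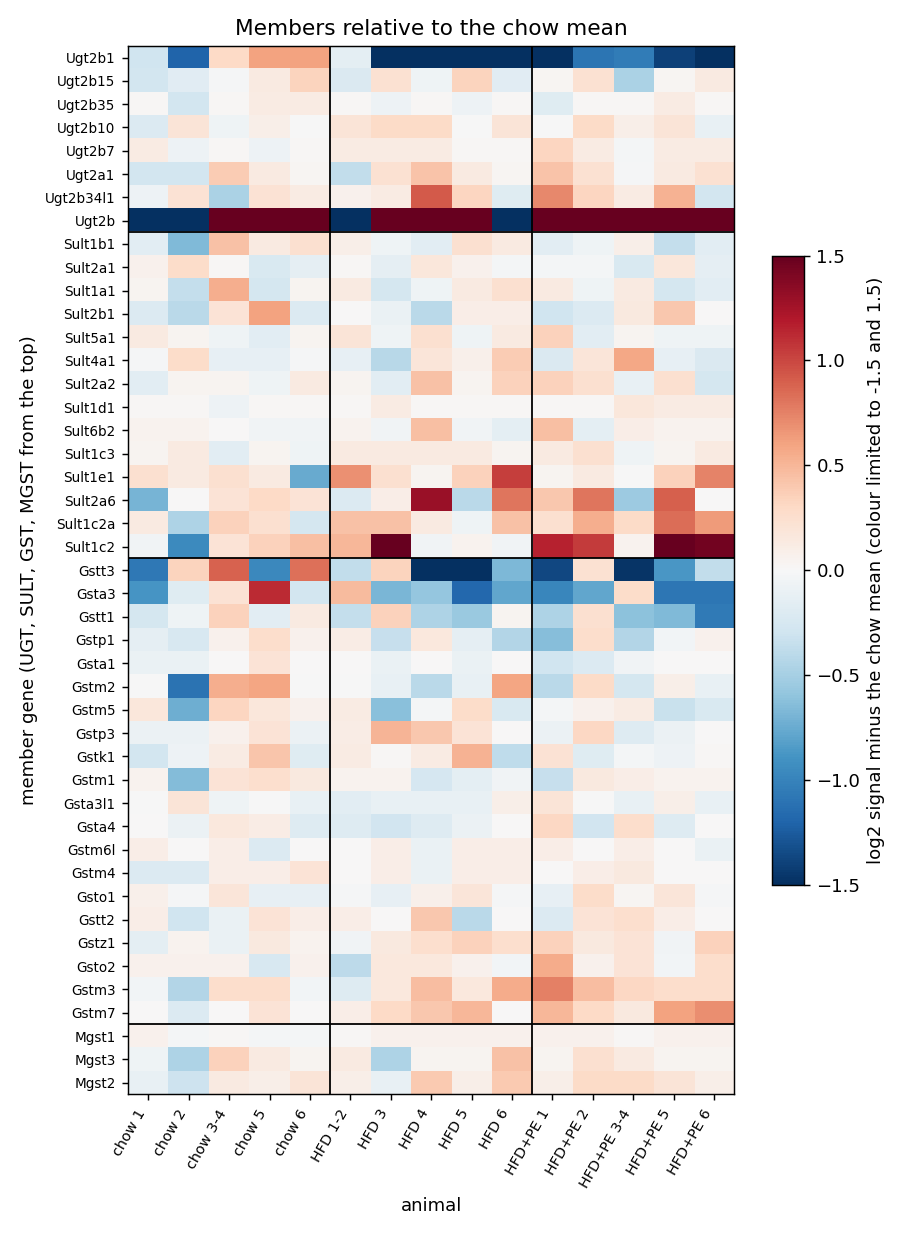
Colour gives the log2 signal minus the chow mean of each member gene (rows, by family) in each of the 15 animals (columns, by diet), with the colour limited to -1.5 and 1.5. Ugt2b switches between animals, Ugt2b1 is low in most high fat animals, and chow 2 is lower than the other chow animals in many members.

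As a set, the members varied more between animals of a group than genes in general. Their median SD within groups was 0.25 log2 units, against 0.17 for all genes, and 31 of 45 lay above the median of all genes. Signal level was not matched between the members and all genes, and this difference in spread was not tested. Ugt2b had the largest SD of all 14217 genes, 3.46. Gstt3 (0.88), Ugt2b1 (0.69), Gsta3 (0.65) and Sult1c2 (0.62) ranked 69, 139, 159 and 184. At the other end, Mgst1 had an SD of 0.03. Chow 2 was the single lowest chow animal for 17 of 45 members (37.8%), against 17.9% of all genes, and it also had the highest macrophage marker mean, 9.10 against 8.07 to 8.48 in the other chow animals. The part of that animal's tissue makeup in these values was not tested.

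**Figure D5:**
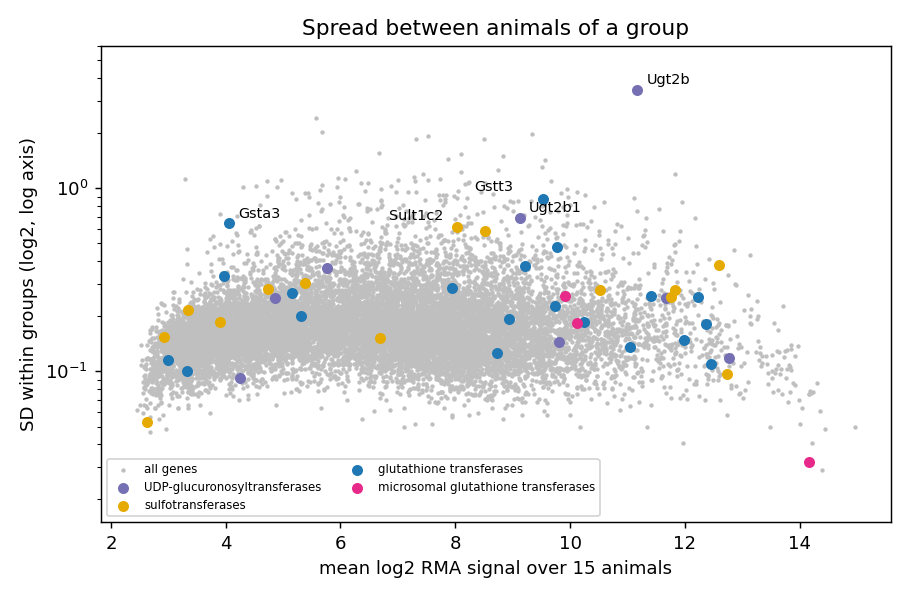
SD between animals of a group (y axis, log scale, log2 units) against mean log2 signal over 15 animals (x axis) for all 14217 genes (grey) and the 45 members (coloured by family). Ugt2b, with an SD of 3.46, lies above every other gene, and Mgst1, with 0.03, lies near the lower edge.

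Genes that serve conjugation differed in few cases, and in these lists too no gene passed an adjusted p of 0.05 in limma. The counts at an unadjusted p under 0.05 stand beside 7.65% of all genes on HFD against chow, 2.7% on HFD+PE against HFD and 11.1% on HFD+PE against chow. Of 14 measured genes that supply the cofactors, 1 was higher on HFD than on chow at an unadjusted p under 0.05 and 3 were higher and 1 lower on HFD+PE than on chow. Gclc and Gss, which make glutathione in successive steps, were higher on HFD+PE than on chow by 0.71 (SE 0.23) and 0.49 (SE 0.13). Gss was also 0.39 (SE 0.13) higher on HFD+PE than on HFD, the single cofactor gene at that threshold there. Slc26a1, a sulfate transporter, was higher by 0.28 (SE 0.10) on HFD and 0.37 (SE 0.10) on HFD+PE than on chow. Cbs, the first step from homocysteine to cysteine, was lower on HFD+PE than on chow by -0.27 (SE 0.12). The list medians were 0.06, 0.06 and 0.05 in the 3 comparisons, against 0, 0 and 0.01 over all genes.

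Of 9 measured genes for the hydrolysis of conjugates and the later mercapturate steps, Nat8, which acetylates cysteine conjugates, was the one at an unadjusted p under 0.05. It was 0.84 (SE 0.15) higher on HFD+PE than on chow and 0.55 (SE 0.15) higher than on HFD. Of 7 measured exporters, the bile canalicular conjugate pump Abcc2 was lower on HFD+PE than on HFD by -0.47 (SE 0.17), and Abcb1a was higher by 0.57 (SE 0.25). Abcc1 was lower than chow by -0.24 (SE 0.10) on both diets, and Abcc3 by -0.30 (SE 0.14) on HFD+PE. Among 15 measured regulators, Nfe2l2, which encodes NRF2, was 0.53 (SE 0.19) higher on HFD+PE than on chow, and the glucocorticoid receptor gene Nr3c1 was 0.43 (SE 0.11) higher on HFD than on chow and -0.39 (SE 0.11) lower on HFD+PE than on HFD. Of 12 measured induction markers, Aldh1a1 was higher than chow by 1.15 (SE 0.36) on HFD and 1.77 (SE 0.36) on HFD+PE. Pir was 1.12 (SE 0.27) higher on HFD+PE than on HFD, and Akr7a3, an aldehyde reductase, was -0.85 (SE 0.28) lower on HFD+PE than on chow. Por, the electron donor of cytochromes P450, was 0.47 (SE 0.21) higher on HFD than on chow. Cyp1a1 ran from 4.7 to 13.0 over all animals, with a median of only 5.1. Its mean was 6.77 in HFD+PE, 4.9 in chow and 5.34 in HFD, and its SD 3.52, 0.158 and 0.195 in the same order. Its difference on HFD+PE against chow was 1.87 (SE 1.10), not beyond the spread between animals. Genes known as NRF2 targets went both ways on HFD+PE against chow. Nqo1, Hmox1 and Txnrd1 stood at -0.78 (SE 0.46), -0.27 (SE 0.20) and -0.04 (SE 0.10). Pir stood at 0.57 (SE 0.27) and Gclm, of the cofactor list, at 0.34 (SE 0.20). None of these had an unadjusted p under 0.05 in limma, whereas Gclc, given above, was higher at that threshold. Of the 12 induction markers, 6 were higher and 6 lower in that comparison, with Aldh1a1 higher and Akr7a3 lower at that threshold.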

How the data were processed

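Total liver RNA had been hybridized to 18 Affymetrix arrays, 6 per diet group by the labels. The authors deposited log2 signals for 31099 probe sets, made with RMA in Affymetrix Expression Console per the submitters' processing notes, with versions not given in the sources used here. All values were rounded to multiples of 0.1, which limits how finely single animals can be compared. With arrays there is no read depth, and precision depends on how many animals there are.

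Control probe sets (57) were dropped. By the platform annotation, 20826 others named 1 gene, 436 several and 9780 none, and RefSeq symbols were taken through the gene identifier for 20758 and the accession for 2 (Sult1e1 by accession), while 66 kept the annotated symbol. The probe set with the highest mean stood for each gene. Pairs of arrays without differences over 2 log2 units were averaged, which is an inference from the values, since the labels call all arrays biological replicates.

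The diets were tested with limma 3.58.1 under R 4.3.3 (1 mean per group over 15 animals, eBayes, two-sided, Benjamini-Hochberg over 14217 genes per comparison, threshold 0.05), with no filter on dim genes. The script was tested on simulated data. Tables were made with Python 3.11.15, pandas 2.3.3 and numpy 2.4.6. The gene set, the related and marker lists and the tests were chosen with earlier results of these data known. Genes were named by rule: up to 8 members per direction at an unadjusted p under 0.05 in each comparison (the 4 with the smallest p where fewer than 4), the 2 with the highest and the 1 with the lowest signal of each family, the 5 with the largest SD, members whose probe sets disagree, and members with an outlying animal; other members appear with ranges. Alternatives were 12 other settings and 15 fits that each left out 1 animal.

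Replicate numbers in the labels did not pair the groups: deviations of arrays with the same number correlated between -0.305 and 0.189 (median 0.04, 18 pairs).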

Additional observations from a re-analysis of the deposited data

Results flagged for a closer look

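In 15 of 135 gene and group combinations (11.1%), in 12 members, 1 animal stood apart from the other 4 of its group by Dixon's criterion; chance flags about 1 in 20 groups. In 6 of the 15 the gap was at most 0.2, close to the rounding of the values: Mgst1 in HFD 1-2 (14.15 against 14.2) and HFD+PE 3-4 (14.15 against 14.2), Sult1c3 in HFD 6 (12.7 against 12.8), Sult1d1 in chow 3-4 (2.5 against 2.6) and HFD 3 (2.7 against 2.6), and Gsta3l1 in HFD 6 (3.1 against 2.85 to 2.9).

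Chow 2 accounted for 4 flags. It was low in Gstm1 (11.6 against 12.3 to 12.5), Gstm5 (3.3 against 4.1 to 4.35) and Ugt2b35 (12.5 against 12.8 to 12.9), and high in Sult4a1 (5.0 against 4.6 to 4.7). HFD+PE 3-4 was high in Gsta3 (4.75 against 3.4 to 3.7) and low in Ugt2b15 (11.2 against 11.7 to 11.9). HFD+PE 1 was low in Gstm1 (11.9 against 12.3 to 12.4), chow 5 in Gsto2 (5.0 against 5.3) and chow 6 in Sult1e1 (11.6 against 12.5 to 12.6). Of these, leaving out chow 6 ended the unadjusted call of Sult1e1 on HFD. Ugt2b was not flagged, since its low animals came in pairs.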

How the results depend on the processing

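No member passed an adjusted p of 0.05 under any of the 12 other settings or 15 fits without 1 animal. Over the 25 members named by rule, no called value reversed; among their differences not called, 87 of 1705 changed sign, 10 of them Ugt2b on HFD against chow (down to -2.71).

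The number of members at an unadjusted p under 0.05 was 4 for HFD against chow, 7 with 18 arrays as separate animals, and 1 to 6 without 1 animal (1 without chow 6, 2 without HFD 4). For HFD+PE against HFD it was 1, but 3 with 18 arrays, 2 with the control set as a covariate, 0 within the lower control set and 0 to 3 without 1 animal (0 without HFD 4 or HFD+PE 1, 2 without chow 2 or HFD+PE 3-4, 3 without HFD+PE 2). For HFD+PE against chow it was 6, 10 with the covariate, and 5 to 8 without 1 animal. For any difference it was 4, 7 with 18 arrays, and 3 to 8 without 1 animal (8 without HFD 1-2). The SULT median on HFD against chow was 0.07, and 0.20 with dim genes left out, which tests fewer genes. The UGT median was 0.09 there, but -0.02 with 18 arrays, -0.06 with the covariate, -0.04 within the lower control set and 0.02 with dim genes left out. The other causes were not tested.

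The replicate numbers did not pair the samples. With the replicate block on 18 arrays, the counts were 6, 3 and 8 in the 3 comparisons, and with a random block 6, 2 and 8. Gstp3 on HFD (0.22) lost its unadjusted call under the block. Over all genes, HFD+PE against chow gave 145 genes past the adjusted threshold with 18 arrays and 119 with the block, against 0 with 15 animals.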
